A study of Homo sapiens with 36 samples.

Results

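Gene expression after chemical inhibition of stearoyl-CoA desaturase (SCD) was set beside expression after lowering of its mRNA by a first siRNA, in 2 human melanoma cell lines, 501mel and IGR37. The comparison used 24 of the 36 libraries of the series, all those of the DMSO, inhibitor, siCTR_1 and siSCD_1 groups, with 3 libraries in each of 8 groups. Inhibitor cells received A939372 (group name SCDi_A93) at 1 uM for 48 h and their controls DMSO. Knockdown cells received siSCD_1 and their controls siCTR_1, each siRNA at 20 nM for 48 h. Both lines were kept in RPMI-1640 with 10% FBS, and neither carried a further treatment in these groups. Each line stands for 1 melanoma. The inhibitor effect was the inhibitor group minus DMSO and the siRNA effect was siSCD_1 minus siCTR_1, each computed within its own table and joined on gene symbol. The 2 effects therefore shared no library, and 12896 genes could be set side by side in each line. Changes are log2 fold changes ± SE with n = 3 libraries a group, and adjusted p-values are from limma with Benjamini-Hochberg adjustment over all genes of a table. A gene is said to have risen or fallen where that p was under 0.05. It is called concordant where it passed in both effects with the same sign, and opposite where it passed in both with different signs. Whether replicates came from separate cultures is not given, and a p-value here weighs a difference against the spread of these libraries, which may be technical. Levels are in CPM, the read count scaled to library size.

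SCD sits in the membrane of the endoplasmic reticulum and inserts a double bond into saturated acyl chains, made in the cell or taken up, to give monounsaturated ones. When saturated acyl chains build up in that membrane, its stress sensors PERK, IRE1 and ATF6 can be switched on. PERK, together with the sensors of amino acid shortage and some other stresses, raises translation of ATF4, a transcription factor whose targets include amino acid enzymes and transporters, CHAC1, SESN2 and DDIT3. Unsaturated fatty acids and sterols also feed back on SREBP, the factor that drives cholesterol and fatty acid synthesis genes. An enzyme inhibitor leaves the mRNA of its target in place, whereas an siRNA lowers it and can also act on other transcripts that match its seed.

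Libraries held 4278126 to 6502417 recovered gene reads in the inhibitor table and 2402788 to 7483010 in the siRNA table. A gene without a read could therefore still have a level of up to 0.461 to 0.637 and 0.388 to 1.19 CPM (counting error only). In 501mel the siSCD_1 libraries held 2897808 to 3285909 reads against 4146308 to 5986834 with siCTR_1, without overlap. In IGR37 they held 2402788 to 5375599 against 4880488 to 7483010. All 9 melanocyte markers were present, with a summed level of 3083 to 7142 CPM over the libraries. Of the markers of other cells, 2 of 7 epithelial ones were listed (at most 10.8 CPM summed), and 3 of 10 blood and endothelial ones, with PTPRC, CD3E, LYZ, HBB, CDH5 and KDR among those not listed. CD68, a lysosomal protein used as a macrophage marker, stood higher in every inhibitor library than in DMSO, at 83.7 to 90.1 CPM against 51.6 to 65.7 in 501mel and 43.7 to 59.5 against 9.20 to 13.3 in IGR37. The CD68 change passed the test in IGR37 (2.16, adjusted p = 1.24e-09) and not in 501mel (0.59, adjusted p = 0.246), nor with the siRNA in either line (-0.25 and -0.34), and its part in any result was not tested. Fibroblast markers summed to at most 16.7 CPM in any library. Spike-ins took 2.43 to 4.83% and 3.76 to 5.71% of reads, but single spike-ins changed unequally between inhibitor and DMSO libraries (log2 changes of -2.74 to 0.63 over 32 spike-ins in 501mel), so they gave no common scale and were not used. The spike-in share in 501mel was 5.13 to 5.71% with siSCD_1 against 3.76 to 4.29% with siCTR_1. The part of depth and of this share in the siRNA effect was not tested. Values are relative to each library's total, and in such bulk samples fewer cells of a type and less RNA per cell cannot be told apart.

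SCD, the targeted gene, was lowered by the siRNA in both lines and raised by the inhibitor in IGR37, where it was an opposite gene. In 501mel its level was 803, 851 and 886 CPM with the inhibitor against 644, 709 and 722 with DMSO, and 114, 122 and 133 with siSCD_1 against 862, 889.8 and 900 with siCTR_1. In IGR37 it was 1266, 1321 and 1368 with the inhibitor against 845, 847 and 870.2, and 161, 176 and 180.1 with the siRNA against 1054, 1099.7 and 1122. The treated libraries lay above their controls with the inhibitor and below them with the siRNA in both lines. The inhibitor change was 0.29 ± 0.16 in 501mel (adjusted p = 0.573) and 0.63 in IGR37 (adjusted p = 0.00215), and the siRNA changes were -2.85 and -2.67. Neither change of SCD differed between the lines by the interaction test (adjusted p = 0.291 for the inhibitor and 0.213 for the siRNA).

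The inhibitor changed few genes in 501mel and a large share in IGR37, while the siRNA changed a large share in both. In 501mel 31 genes rose (0.232% of 13364 tested) and 8 fell (0.0599%) with the inhibitor, 0.292% in all, and 2733 rose (20.9% of 13066) and 2881 fell (22.0%) with the siRNA, 43.0% in all. In IGR37 2797 rose (20.9%) and 3093 fell (23.1%) with the inhibitor, 44.1% in all, and 2181 rose (16.7%) and 2534 fell (19.4%) with the siRNA, 36.1% in all. Joined, 501mel had 26 concordant genes (0.202% of 12896), 23 up (0.178%) and 3 down (0.0233%), and 2 opposite genes (0.0155%). IGR37 had 2876 concordant genes (22.3%), 1327 up (10.3%) and 1549 down (12%), and 221 opposite genes (1.71%). Of the genes called in both effects 92.9% were concordant in 501mel (28 genes called in both) and 92.9% in IGR37 (3097). These shares describe only genes that passed both tests, 28 of them in 501mel, and not the agreement over all genes. Over all 12896 joined genes the signs were the same for 52.0% in 501mel and 70.5% in IGR37. Of the 5581 joined genes called with the siRNA in 501mel, 0.502% were called with the inhibitor too, against 65.9% of 4698 in IGR37. Read from the other side, 71.8% of the 39 inhibitor genes in 501mel were called with the siRNA, and 53.2% of 5820 in IGR37. The concordant count of 501mel was sensitive to single libraries: it was 12 without inhibitor replicate 3, 13 without inhibitor replicate 2 and 17 without DMSO replicate 3, and 3 when only the groups compared entered the fit. The number of inhibitor calls was 18 without inhibitor replicate 2 and 17 without inhibitor replicate 3. In every fit with 1 library left out, 9 of the 26 genes remained concordant: A2M, DDIT4, GDF15, IL21R, INSIG1, NUPR1, RNF145, SESN2 and TSC22D3. Over the same kind of omission the IGR37 count was 2457 to 2791.

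**Figure D1:**
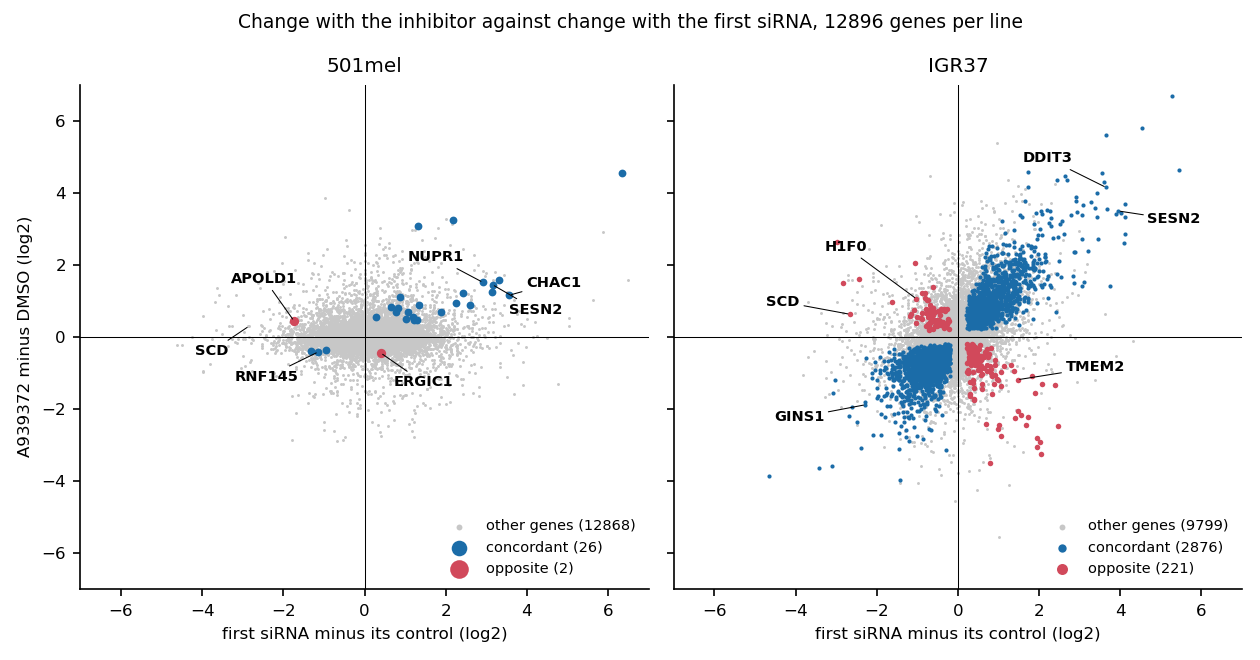
Change with A939372 (inhibitor minus DMSO, log2, y axis) against change with the first siRNA (siSCD_1 minus siCTR_1, log2, x axis), 1 point per gene, 501mel on the left and IGR37 on the right. Blue points are concordant genes (26 and 2876), red points opposite genes (2 and 221) and grey points all others; the 501mel cloud is flat along the x axis, and the IGR37 cloud runs along the diagonal.

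Across genes the 2 effects were almost unrelated in 501mel (Pearson r = 0.075) and related in IGR37 (r = 0.511), over 12896 genes that share libraries and so are no independent replicates. Without inhibitor replicate 3 the 501mel value was 0.037, and without DMSO replicate 2 it was 0.048. Over the 6322 genes at or above the median level in both tables, where few reads matter less, r was 0.112 in 501mel and 0.688 in IGR37, and the signs were the same for 52.2% and 74.5% of genes. The inhibitor effect was smaller in 501mel: over these genes its SD was 0.182, against 0.648 in IGR37, while the SD of the siRNA effect was 0.608 in 501mel and 0.538 in IGR37. The siRNA effects of the 2 lines correlated at r = 0.605, and the siRNA effect in 501mel correlated with the inhibitor effect in IGR37 at r = 0.519. The 501mel inhibitor effect had r = 0.299 with the IGR37 inhibitor effect and r = 0.219 with the IGR37 siRNA effect, both over the same 6322 genes.

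The size of the siRNA change made little difference in 501mel. Among the 282 genes of that level that the siRNA lowered by a log2 change of 1 to 2, the median inhibitor change was -0.03, and among the 261 raised by 1 to 2 it was 0.02. It reached 0.31 only in the 25 genes raised by more than 2. In IGR37 the median inhibitor change was -0.83 in the 229 genes lowered by 1 to 2, 0.57 in the 577 raised by 0.5 to 1, 1.34 in the 169 raised by 1 to 2 and 3.38 in the 15 raised by more than 2. Of those 169 genes, 95.3% were higher with the inhibitor. Counting the siRNA calls of either line in the same way, the 2702 genes that rose in 501mel had a median inhibitor change of 0.02 (52.5% higher) and the 2165 that rose in IGR37 had 0.58 (82.8% higher).

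**Figure D2:**
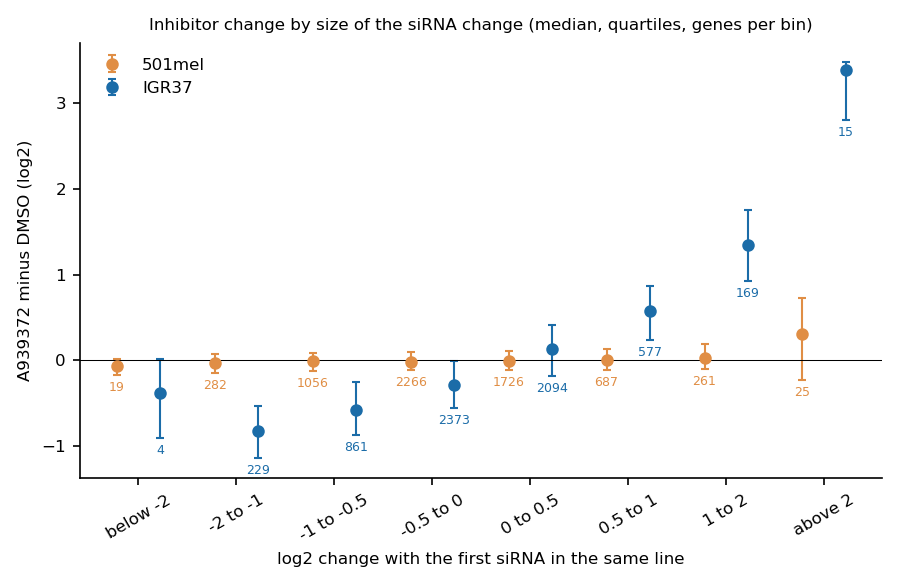
Median inhibitor change (log2, y axis; bars span the lower and upper quartile) of genes grouped by the size of their siRNA change (log2, x axis), for genes at or above the median level, with the number of genes in each bin. The IGR37 medians climb from -0.83 to 3.38 between the bin of -2 to -1 and the bin above 2, while those of 501mel lie between -0.06 and 0.02 in every bin but the last.

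The genes that rose in 501mel with both treatments included 8 of the PERK-ATF4 and amino acid response list and 3 of the AP-1 and immediate early list. ATF3 is on both lists and is counted in each. Most of the genes that rose with both treatments in 501mel rose with both in IGR37 too. Of the 23 concordant rises in 501mel, 18 were concordant rises in IGR37, among them ATF4, ASNS, CHAC1, SESN2, DDIT4, NUPR1, ATF3, TSC22D3, GDF15, SARS, EGR1, IER3, A2M, AKNA, ARMC9 and IL21R. ATF4, the transcription factor of this response, stood at 622, 653 and 721 CPM with the inhibitor in 501mel against 383, 415 and 439 with DMSO, and at 844, 898 and 1007 with siSCD_1 against 408, 413 and 486. In IGR37 it was 1040, 1065 and 1071 against 173, 186 and 217, and 750.3, 782 and 924 against 230.1, 231 and 235. No treated library of ATF4 overlapped its controls, although its 501mel inhibitor call was lost in 6 of 16 alternative settings, among them without DMSO replicate 2 or 3 and without inhibitor replicate 2 or 3 (adjusted p up to 0.151). The changes were 0.69 ± 0.14 (adjusted p = 0.0188) and 1.07 in 501mel, and 2.47 and 1.81 in IGR37. The DMSO level was higher in 501mel than in IGR37, and with the inhibitor the order was turned round.

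SESN2, a stress-induced restraint on mTORC1, rose with both treatments in both lines. In 501mel its level was 53.2, 56.0 and 57.3 CPM with the inhibitor against 16.6, 20.1 and 25.3, and 349, 386 and 397 with the siRNA against 36.6, 39.3 and 52.4. In IGR37 it was 288, 294 and 298 against 25.1, 25.4 and 27.7, and 373, 385 and 456 against 25.1, 26 and 27.0. Its rise with the inhibitor was 1.44 ± 0.15 in 501mel (adjusted p = 1.55e-05) and 3.49 in IGR37, and with the siRNA 3.16 and 3.95. NUPR1, a small stress-induced chromatin protein, rose by 1.51 ± 0.23 and 2.91 in 501mel and by 3.38 and 2.80 in IGR37. ASNS, asparagine synthetase, rose by 0.88 and 2.61 in 501mel and by 4.34 and 2.68 in IGR37. In its libraries that was 61.1, 66.3 and 77.6 CPM with the inhibitor against 36.3, 36.7 and 38.0 in 501mel, and 766, 816 and 824 against 35.2, 39.2 and 44.4 in IGR37. CHAC1, which degrades glutathione, rose by 1.15 and 3.57 in 501mel and 3.43 and 4.02 in IGR37; its 501mel inhibitor call was lost without any 1 of 5 libraries (each DMSO replicate, inhibitor replicates 2 and 3), and that of ASNS without inhibitor replicate 3. DDIT4, another mTORC1 restraint, rose by 0.93 and 2.24, and by 1.83 and 1.53. GDF15, a secreted stress factor, rose by 0.69 ± 0.08 and 1.87, and by 1.09 and 1.73. In these genes the siRNA values exceeded the inhibitor values in 501mel, while in IGR37 the order varied from gene to gene; the difference between treatments was not tested, because the tables were normalised separately.

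**Figure D3:**
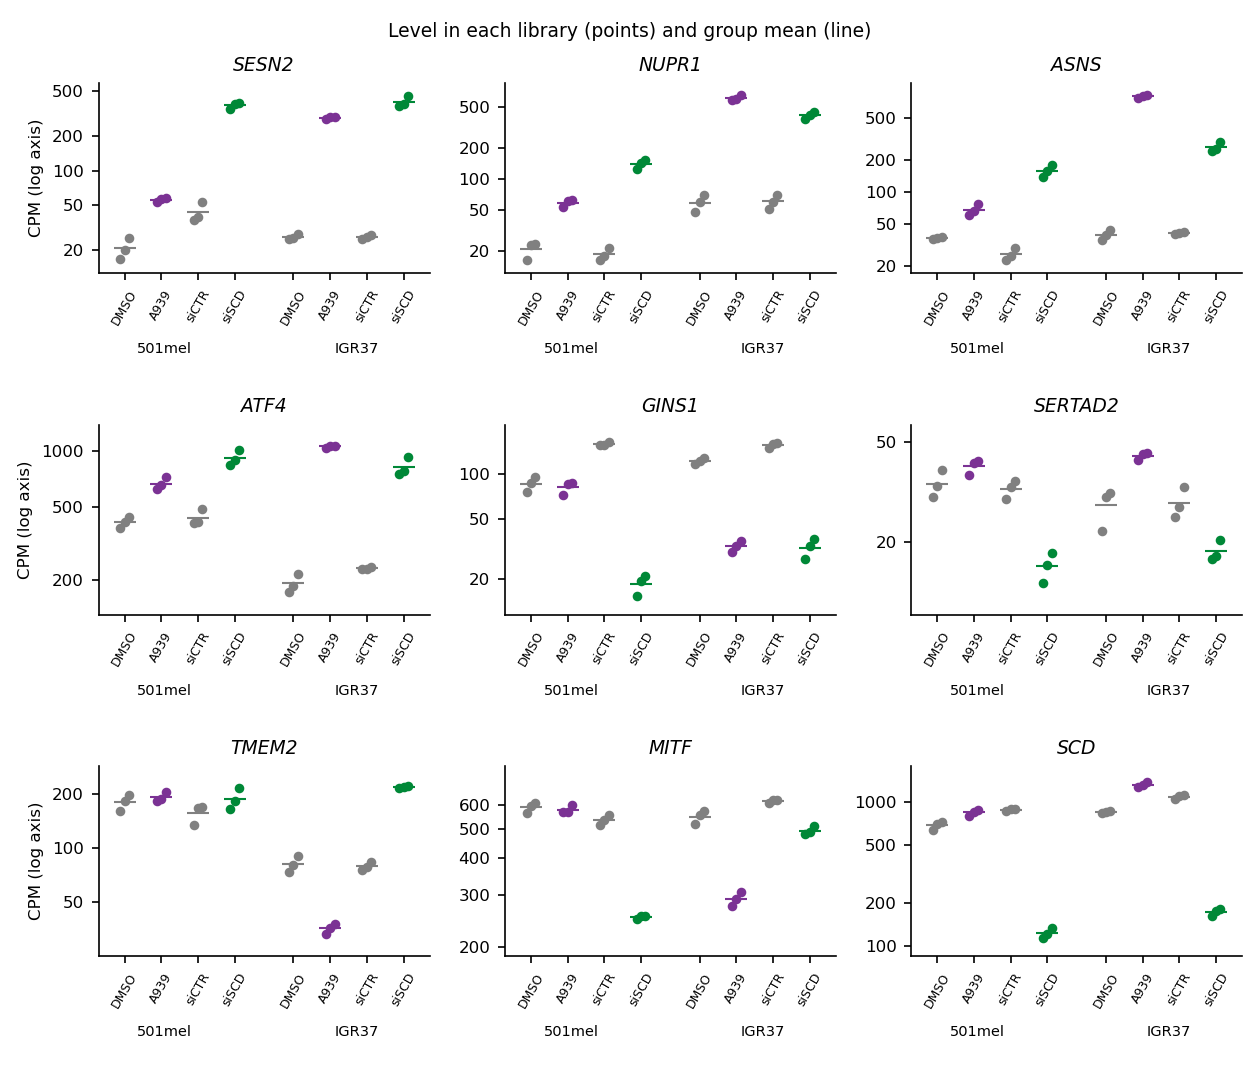
Level in each library (points, CPM, log axis) and group mean (line) of 9 genes, for DMSO, A939372 (A939), siCTR_1 (siCTR) and siSCD_1 (siSCD) in 501mel and IGR37. For SESN2 the inhibitor libraries sit at 53.2 to 57.3 in 501mel and at 288 to 298 in IGR37, and for GINS1 and MITF the inhibitor libraries leave their controls in IGR37 only.

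The proximal promoters of ASNS and CHAC1 hold the C/EBP-ATF element to which ATF4 binds with a C/EBP partner, and are shown because these genes were concordant in both lines. The windows run from 250 bases before to 50 after the RefSeq start (GRCh38.p14), at chr7:97872359-97872658 on the minus strand and chr15:40953221-40953520 on the plus strand, 5′ to 3′ of the gene, with the match to TGATGNAA on either strand in capitals.
ASNS: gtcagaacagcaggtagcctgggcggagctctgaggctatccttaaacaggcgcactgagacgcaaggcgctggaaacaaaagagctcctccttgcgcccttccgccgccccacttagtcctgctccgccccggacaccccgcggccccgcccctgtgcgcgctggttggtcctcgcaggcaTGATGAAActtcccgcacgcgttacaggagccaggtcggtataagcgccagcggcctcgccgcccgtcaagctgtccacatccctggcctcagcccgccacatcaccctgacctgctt
CHAC1: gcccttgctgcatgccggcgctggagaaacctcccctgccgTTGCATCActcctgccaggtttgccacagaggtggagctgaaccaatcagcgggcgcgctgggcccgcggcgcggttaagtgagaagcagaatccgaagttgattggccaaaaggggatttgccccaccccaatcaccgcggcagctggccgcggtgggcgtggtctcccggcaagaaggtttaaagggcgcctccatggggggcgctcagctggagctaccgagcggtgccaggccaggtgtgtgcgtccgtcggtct
The match lies 68 bases before the start in ASNS, and in CHAC1 it lies on the opposite strand, 209 bases before the start. Of the joined genes 9666 had a promoter in that table, and 1.67% of them held the word. It was present in 4 of the 12 matched genes that rose with both treatments in both lines, namely ASNS, ATF3, CHAC1 and IL21R. Among the IGR37 concordant rises it was present in 2.01% of 1047, close to the share over all joined genes. A match describes these letters in this window and is not a measured binding site.

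A smaller group of 501mel concordant rises were sterol and lipid genes, some of which IGR37 did not share. INSIG1, which holds SREBP in the endoplasmic reticulum and is itself an SREBP target, stood at 78.6, 79.1 and 80.3 CPM with the inhibitor in 501mel against 48.8, 49.1 and 50.7, and at 154, 155 and 160.3 with the siRNA against 85.6, 94.0 and 94.8. It rose by 0.68 ± 0.10 (adjusted p = 0.00114) and 0.77 ± 0.08. In IGR37 its changes were 0.23 (adjusted p = 0.0644) and 0.01 (adjusted p = 0.929). LPIN1, a phosphatidate phosphatase, rose by 0.83 and 0.64 in 501mel, while in IGR37 only its siRNA change passed (0.66, beside 0.31 with the inhibitor). The 501mel inhibitor call of LPIN1 was lost without DMSO replicate 3. FAM83H, PYCARD and SERPINB1 also rose with both treatments in 501mel. Over the inhibitor and DMSO libraries of 501mel, FAM83H rested on 12 reads against 1, SERPINB1 on 13 against 2 and IL21R on 18 against 0. PYCARD rested on 61 against 28 (adjusted p = 0.0489). In IGR37 the inhibitor change of PYCARD was the other way (-1.09, adjusted p = 0.000852), and the interaction test called the difference (-2.21, adjusted p = 3.49e-05).

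Only 3 genes fell with both treatments in 501mel, and 2 moved in opposite directions. RNF145, a sterol-responsive ubiquitin ligase, stood at 183, 185 and 185 CPM with the inhibitor against 238, 246 and 258, and fell by 0.42 and 1.14. In IGR37 it fell by 0.74 with the inhibitor, and its siRNA change was -0.13 (adjusted p = 0.14). UBFD1 fell by 0.39 and 1.31 and HNRNPA0, an RNA-binding protein, by 0.37 and 0.95; in IGR37 both fell with the siRNA alone, and their 501mel inhibitor calls were lost in 11 (UBFD1) and 5 (HNRNPA0) of 16 alternative settings. APOLD1, a protein with an apolipoprotein L domain, stood at 401, 415 and 434 CPM with the inhibitor in 501mel against 297, 309.8 and 311, and at 65.6, 71.6 and 75.5 with the siRNA against 223, 240.3 and 248. It rose by 0.45 ± 0.08 (adjusted p = 0.0130) and fell by 1.74, and no treated library overlapped its controls. ERGIC1, a protein of the compartment between endoplasmic reticulum and Golgi, fell by 0.45 with the inhibitor (adjusted p = 0.0426) and rose by 0.40 with the siRNA (adjusted p = 0.00899), and in IGR37 it fell with both. Neither gene remained opposite without DMSO replicate 2, inhibitor replicate 2 or inhibitor replicate 3, and ERGIC1 also lost its place without DMSO replicate 1 or 3, inhibitor replicate 1 or siCTR_1 replicate 1. Its siRNA fall in IGR37 was lost in 8 of 16 settings.

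HMGCS1 and FADS1, singled out after their values were seen, rose with the inhibitor in both lines and fell with the siRNA in IGR37. HMGCS1, an early enzyme of cholesterol synthesis, stood in 501mel at 649, 680.4 and 719.7 CPM with the inhibitor against 389.6, 403 and 451, a rise of 0.72 ± 0.13 (adjusted p = 0.00886), and its siRNA change there was -0.09 (adjusted p = 0.509). In IGR37 it rose by 0.40 with the inhibitor and fell by 0.69 with the siRNA. FADS1, the delta-5 desaturase of long polyunsaturated fatty acids, rose by 0.45 with the inhibitor in 501mel beside a siRNA change of 0.01, and in IGR37 rose by 0.60 and fell by 0.60. Its IGR37 libraries stood at 75.4, 77.6 and 78.0 CPM with the inhibitor against 48.0, 52.2 and 52.7, and at 50.5, 50.7 and 52.5 with the siRNA against 75.7, 77.7 and 80.2. No treated group of FADS1 in IGR37 overlapped its controls. The 501mel inhibitor calls were lost without DMSO replicate 2, inhibitor replicate 2 or inhibitor replicate 3 for HMGCS1 and without any 1 of the 6 libraries for FADS1, and the IGR37 inhibitor call of HMGCS1 without inhibitor replicate 1 or 2.

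The 1327 genes that rose with both treatments in IGR37 included DDIT3, SLC7A11, HERPUD1, RELB and JUN. Their median changes were 0.89 with the inhibitor and 0.73 with the siRNA, and in 1282 of them the libraries did not overlap in either comparison. Such separation is favoured by the choice of genes that passed both tests, so the count only describes them. DDIT3, the stress factor CHOP, stood in IGR37 at 204, 207 and 213 CPM with the inhibitor against 10.6, 11.5 and 13.1, and at 124, 125 and 136 with the siRNA against 8.4, 11 and 11.4, rises of 4.14 and 3.65. In 501mel it was 48.0, 53.3 and 54.8 with the inhibitor against 32.3, 33.6 and 37.3 (0.60, adjusted p = 0.10), and 182, 186 and 199 with the siRNA against 17.4, 18.3 and 18.4 (a rise of 3.39). SLC7A11, the cystine importer, rose by 4.36 and 2.43 in IGR37, and its 501mel changes were 0.27 (adjusted p = 0.598) and 1.93. HERPUD1, which serves degradation of misfolded proteins, rose by 3.37 and 3.05 in IGR37. RELB, an NF-kB subunit, rose by 3.42 and 3.91 in IGR37, and JUN, an AP-1 subunit, by 3.47 and 2.94. In 501mel RELB changed by -0.07 with the inhibitor, without passing, and rose by 1.77 with the siRNA.

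HSPA5, the chaperone BiP, and XBP1, the factor whose mRNA IRE1 splices, are main genes of the folding arm of this stress response. HSPA5 rose by 2.07 and 1.65 in IGR37 and XBP1 by 1.61 and 2.20. In 501mel the siRNA raised HSPA5 by 1.38 and XBP1 by 1.31, and the inhibitor changes were -0.14 (adjusted p = 0.642) and 0.14 (adjusted p = 0.607). The promoter of HSPA5 (chr9:125241294-125241593, minus strand, RefSeq GRCh38.p14, the same window) is shown because it carries the endoplasmic reticulum stress element, CCAAT and CCACG separated by 9 bases of any kind, in capitals.
HSPA5: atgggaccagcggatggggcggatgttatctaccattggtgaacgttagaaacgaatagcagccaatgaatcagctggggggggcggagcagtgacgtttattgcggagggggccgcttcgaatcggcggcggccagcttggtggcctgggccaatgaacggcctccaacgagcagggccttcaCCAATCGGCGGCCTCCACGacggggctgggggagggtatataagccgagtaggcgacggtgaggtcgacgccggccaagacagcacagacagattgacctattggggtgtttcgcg
That element was present in 0.145% of the 9666 joined promoters and in 0.764% of the 1047 IGR37 concordant rises, which is 8 promoters, with HSPA5, XBP1, CRELD2 and CANX among them. An NF-kB word, GGGAC followed by TTTCC, was in 0.478% of that class against 0.186% of all joined promoters, and the AP-1 word TGACTCA in 3.25% against 2.90% (both strands, no test).

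The 1549 genes that fell with both treatments in IGR37 included genes of DNA replication, chromosomes and mitochondria. Their median changes were -0.74 with the inhibitor and -0.65 with the siRNA. GINS1, a subunit of the replicative helicase, stood in IGR37 at 30.3, 33.3 and 35.5 CPM with the inhibitor against 117, 121 and 127, and at 27.1, 33.0 and 36.9 with the siRNA against 149, 159 and 160. It fell by 1.88 and 2.28. In 501mel it was 72.7, 86.2 and 87.3 with the inhibitor against 75.4, 86.8 and 95.1, where the groups overlapped, and 15.3, 19.2 and 20.8 with the siRNA against 155, 157 and 164. ZWINT, a kinetochore protein, fell by 2.11 and 1.48 in IGR37, CHAF1B, a histone chaperone of replication, by 1.67 and 1.53, and MCM10, a replication initiation factor, by 1.53 and 1.48. APEX2, an apurinic-site endonuclease, fell by 1.5 and 1.47, and ICMT, which methylates prenylated proteins, by 1.61 and 1.43. ATP5G1, a subunit of the mitochondrial ATP synthase, fell by 1.63 and 1.22 in IGR37. For ZWINT, CHAF1B, MCM10 and ICMT the 501mel inhibitor changes lay between -0.30 and 0.00, none past the threshold.

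The GINS1 promoter (chr20:25407423-25407722, plus strand, RefSeq GRCh38.p14, same window) is printed as the example of a concordant fall with an E2F word, TTTGGCGC on either strand, in capitals.
GINS1: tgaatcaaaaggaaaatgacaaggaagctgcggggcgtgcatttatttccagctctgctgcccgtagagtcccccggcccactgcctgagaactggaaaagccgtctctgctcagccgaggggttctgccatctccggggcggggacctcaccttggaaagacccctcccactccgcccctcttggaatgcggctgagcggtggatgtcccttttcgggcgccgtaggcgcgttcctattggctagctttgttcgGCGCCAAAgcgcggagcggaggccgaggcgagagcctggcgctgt
The match is on the opposite strand, 5 bases after the start. The word was present in 2.93% of 1227 IGR37 concordant falls, or 36 promoters, and in 1.13% of the 9666 joined promoters. E2F1, MCM6, POLE2, POLA1 and POLE held it too. POLE2, a subunit of DNA polymerase epsilon, fell by 1.55 and 1.76 in IGR37, and in 501mel its changes were 0.09 and -0.39.

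Opposite genes in IGR37 had smaller changes than the concordant ones. The median of the smaller of the 2 absolute changes was 0.45 in the 78 genes that rose with the inhibitor and fell with the siRNA, and 0.42 in the 143 with the reverse pattern, against 0.66 and 0.55 in the concordant rises and falls. Libraries did not overlap in either comparison for 67 of the 78 and 130 of the 143, a separation that the choice of genes passing both tests favours. Of the 78, BCL7A, a subunit of BAF chromatin remodelling complexes, stood at 47.3, 53.6 and 55.2 CPM with the inhibitor against 21.5, 25.5 and 29.8, and at 13.1, 18.1 and 23.1 with the siRNA against 28.4, 29.1 and 32.0. It rose by 1.03 and fell by 0.76, and in 501mel it fell by 1.49 with the siRNA beside an inhibitor change of 0.00. SERTAD2, a transcriptional co-regulator, rose by 0.68 (adjusted p = 0.000129) and fell by 0.63 (adjusted p = 0.00344) in IGR37, and fell by 1.03 with the siRNA in 501mel. SLC30A9 (1.08 and -0.81) and TNFRSF19 (0.88 and -0.69) followed the same pattern. H1F0, a linker histone, headed the ranking under the naming rule with 1.05 (adjusted p = 0.031) and -1.02. That rule takes genes at or above the median level with libraries not overlapping. Over all 78 genes the largest smaller change was 2.64. The inhibitor call of H1F0 was lost in 6 of 16 alternative settings, among them without any 1 DMSO library or without inhibitor replicate 1 or 2.

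TMEM2, a cell surface hyaluronidase, led the genes that fell with the inhibitor and rose with the siRNA under the same naming rule. Over all 143 such genes the largest smaller change was 2.46. In IGR37 it stood at 33.1, 35.9 and 37.8 CPM with the inhibitor against 73.5, 80.5 and 90.6, and at 217, 220.1 and 220.5 with the siRNA against 75.2, 78.7 and 83.6. It fell by 1.19 and rose by 1.47, and in 501mel its changes were 0.09 and 0.26, neither past the threshold. COL9A3, a collagen IX chain, fell by 1.38 and rose by 1.06. SESN3, a relative of SESN2 and a FOXO target, fell by 0.94 and rose by 1.38, in contrast to SESN2, which rose with both. TRIB1, a pseudokinase that binds the ligase COP1, fell by 1.10 and rose by 0.84, KANK1 fell by 1.3 and rose by 0.90, and FUCA1, a lysosomal fucosidase, fell by 0.80 and rose by 1.13. In 501mel the siRNA raised COL9A3 by 1.26, SESN3 by 1.39 and TRIB1 by 0.63, and the inhibitor changes of these 3 lay between -0.17 and 0.00.

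Genes that the siRNA alone lowered, or that it lowered while the inhibitor raised them, more often held a certain word of 7 bases in the 3′ untranslated region (UTR). The word GCTTCCT was found by ranking 14383 words on the siRNA effect of 6000 genes at or above the median level with a UTR. A fit on UTR length was subtracted first, and mean differences were weighted by the square root of the number of genes holding the word. So adjusted, the siRNA change of the 1132 genes that held it was lower on average by 0.27 in 501mel and 0.14 in IGR37, rank 1 in both lines. Without that adjustment the difference of medians, with minus without the word, was -0.15 and -0.08. With the inhibitor GCTTCCT ranked 11416 and 3390. The word CTTCCTA ranked 115 and 2 for the siRNA, and the words overlap in GCTTCCTA. TGCTTCC, which overlaps GCTTCCT, ranked 2 in 501mel and 3 in IGR37 for the siRNA and was not followed further. The sites below, 29 bases each with the word in capitals, are from GENCODE 29 transcripts (hg38), read 5′ to 3′ of the mRNA, for genes that fell with the siRNA and that the opposite and siRNA-only results name.
BCL7A: tcgctggaacaGCTTCCTctcactgaacg
SERTAD2: tgtcttctgcaGCTTCCTttccctagagc
MITF: tcgcacaaactGCTTCCTttcttgattcg
AKR7A2: ttatttttctaGCTTCCTgccttgctccc
STAT3: ttaagcattcaGCTTCCTtcaggctggta
SHISA5: ctgtatatgtgGCTTCCTctgatgctgac
APOLD1: gacttttcagtCTTCCTAgtggaaaaatg
They lie at chr12:122060461-122060489 on the plus strand for BCL7A, chr2:64634634-64634662 on the minus strand for SERTAD2, chr3:69965270-69965298 on the plus strand for MITF, chr1:19304077-19304105 on the minus strand for AKR7A2. The others are at chr17:42314793-42314821 on the minus strand for STAT3, chr3:48468934-48468962 on the minus strand for SHISA5 and chr12:12787853-12787881 on the plus strand for APOLD1. All 7 lie within 1 exon of the annotated UTR. Some of the named concordant falls held a word too, GCTTCCT in CHAF1B and UBFD1 and CTTCCTA in GINS1, APEX2 and ICMT. SCD, the targeted gene, held both words. A word was also present in genes that rose with the siRNA, GCTTCCT in NUPR1 (2.91 in 501mel and 2.80 in IGR37), LPIN1 (0.64 and 0.66) and SESN3 (1.39 and 1.38), and CTTCCTA in FABP7, which rose by 3.17 in 501mel. These words were chosen on the siRNA effects, so their shares in classes made from those effects are a description.

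GCTTCCT was present in 19.4% of 11455 genes with a UTR, and in 43.7% (31 of 71) of those that rose with the inhibitor and fell with the siRNA in IGR37. Its share was 27.9% among IGR37 genes lowered by the siRNA alone, 21.6% among concordant falls, 18.8% among concordant rises and 17.4% among genes that fell with the inhibitor and rose with the siRNA. In 501mel it was 25.8% among genes lowered by the siRNA alone and 15.1% among those raised by it alone. The median UTR length was 1887 bases in the class of 71 and 1430 over all genes. The siRNA sequence is not used here, and whether these sites were acted on was not tested. Over the 8322 genes with neither word the 2 effects correlated at r = 0.067 in 501mel and r = 0.546 in IGR37, against 0.083 and 0.539 over all 11455 genes with a UTR.

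AKR7A2, an aldo-keto reductase, had the deepest siRNA-only fall of 501mel under the naming rule. It stood at 14.4, 18.3 and 18.7 CPM with siSCD_1 against 156, 164 and 175, a fall of 3.27, while its inhibitor libraries at 147, 150.3 and 154 overlapped DMSO at 144, 159.8 and 168. In IGR37 it fell with both, by 0.58 and 2.27. STAT3, a cytokine-activated transcription factor, fell by 2.36 and 1.65 with the siRNA, beside inhibitor changes of 0.16 in both lines, and SHISA5, an endoplasmic reticulum protein, by 2.46 and 1.70, beside -0.06 and 0.08. On the rising side of 501mel, FABP7, a fatty acid binding protein of the neural crest lineage, rose by 3.17 with the siRNA beside 0.13 with the inhibitor, and DNAJB9, an endoplasmic reticulum co-chaperone, by 3.04 beside 0.51. DNAJB9 rose with both in IGR37 (2.38 and 3.22), whereas FABP7 passed with neither there (-0.27 and -0.57).

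MITF, the master transcription factor of melanocytes, was concordant in IGR37 and not in 501mel, with the larger fall under a different treatment in each line. In 501mel it stood at 567, 570.2 and 602 CPM with the inhibitor against 565, 595 and 608, where the groups overlapped, and at 249, 254 and 255 with the siRNA against 516, 533 and 557. In IGR37 it was 276, 291 and 306 with the inhibitor against 519.6, 555 and 573, and 478, 488 and 510.5 with the siRNA against 609, 622 and 624. The changes were -0.02 and -1.08 in 501mel, and -0.92 and -0.33 in IGR37. The inhibitor change was lower in IGR37 than in 501mel by the interaction test (-0.89, adjusted p = 1.78e-06) and the siRNA change higher (0.75, adjusted p = 4.52e-05). Its UTR holds the word GCTTCCT, shown above. Of 35 pigment cell genes, 0 rose and 0 fell with the inhibitor in 501mel, where 0.292% of all genes passed, and 9 rose and 20 fell with the siRNA, against 20.9% and 22.0% of all genes. In IGR37 3 rose and 24 fell with the inhibitor and 10 rose and 10 fell with the siRNA, with 9 concordant falls and 3 concordant rises. The shares over all genes there were 20.9% and 23.1% with the inhibitor, 16.7% and 19.4% with the siRNA, and 12% and 10.3% for concordant falls and rises. KIT, a receptor kinase of melanocytes, fell by 1.59 and 0.85 in IGR37 and TRPM1, an MITF target channel, by 2.00 and 0.91, while CITED1, a pigment cell co-regulator, rose by 2.31 and 1.52. The summed level of the 9 melanocyte markers moved with these groups: 3970 to 4230 CPM with the inhibitor against 5767 to 5924 in IGR37, and 3083 to 3132 with the siRNA against 4307 to 4492 in 501mel; its part in the result was not tested.

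Pathway lists showed where the 2 treatments ran together; they are described by counts and medians, beside a median over all joined genes of 0.00, 0.00, 0.00 and -0.02 for the inhibitor and siRNA in 501mel and in IGR37. Of 38 genes of the PERK-ATF4 and amino acid response, 8 rose with the inhibitor in 501mel (median 0.35) and all 8 were concordant, while 29 rose with the siRNA (median 1.02), against 0.232%, 0.178% and 20.9% of all genes. In IGR37 33 rose with the inhibitor (median 1.85), 34 with the siRNA (1.46), and 32 were concordant, against 20.9%, 16.7% and 10.3% of all genes; the same shares apply to the rises in IGR37 given next. Of 26 IRE1-XBP1 and ATF6 genes, none passed with the inhibitor in 501mel (median 0.01) and 21 rose with the siRNA; in IGR37 23 and 17 rose, 17 of them with both. Of 25 NF-kB and inflammatory genes 12 were concordant rises in IGR37, among them CXCL8, a neutrophil chemokine, at 4.53 and 3.55. Of 20 AP-1 and immediate early genes, 3 were concordant rises in 501mel and 11 in IGR37. ATF3, which is counted in this list and in the PERK-ATF4 list, rose by 1.26 and 3.14 in 501mel and by 4.29 and 3.59 in IGR37.

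Many genes of the DNA replication, mitosis, respiration and heat shock lists fell with both treatments in IGR37. With the inhibitor in 501mel no member of these lists fell, where 0.0599% of all genes did, a share at which lists of this size would hold about none, so nothing is read from those counts. The shares over all genes are 23.1% for falls with the inhibitor, 19.4% with the siRNA and 12% with both in IGR37, and 22.0% with the siRNA in 501mel. All 37 DNA replication genes fell with the siRNA in IGR37 (median -1.02) and 34 with the inhibitor (-1.0), 34 with both. In 501mel 26 fell with the siRNA (median -0.50) and 0 with the inhibitor (-0.01). Of 33 G2 and mitosis genes 21 were concordant falls in IGR37, although the siRNA lowered all 33 (median -0.96) and the inhibitor 21 (-0.36). Of 36 oxidative phosphorylation genes 19 were concordant falls in IGR37, and in 501mel 25 fell with the siRNA and 0 with the inhibitor. Of 21 heat shock chaperones, 9 were concordant falls in IGR37, among them HSPA8, the constitutive cytosolic chaperone, at -1.90 and -0.53.

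Ribosomal protein genes differed in sign between the treatments in 501mel, and sterol genes moved in both directions. Of 34 cytosolic ribosomal protein genes, 26 fell with the siRNA in 501mel (median -0.36, against 22.0% of all genes) while none passed with the inhibitor (median 0.20), and 8 of 34 had the same sign in both, against 52.0% of all joined genes. In IGR37 10 rose with the inhibitor (median 0.21) and 7 fell with the siRNA (-0.11), near the shares over all genes (20.9% and 19.4%), and RPL5 was opposite at 0.34 and -0.27. Over all genes in 501mel 0.232% rose with the inhibitor, 20.9% rose and 22.0% fell with the siRNA, and 0.178% of joined genes were concordant rises. Of 27 cholesterol genes, 3 rose with the inhibitor in 501mel and 13 rose and 6 fell with the siRNA, 2 of them concordant rises, and 17 had the same sign. In IGR37 19 had the same sign (70.5% of all joined genes did), 10 rose and 6 fell with the inhibitor and 4 rose and 10 fell with the siRNA, giving 3 concordant rises, 3 concordant falls and 3 that rose with the inhibitor and fell with the siRNA. Of 27 fatty acid synthesis and desaturation genes, 3 in IGR37 rose with the inhibitor and fell with the siRNA, SCD and FADS1 among them, 3 rose and 2 fell with both. Over all genes in IGR37 20.9% rose and 23.1% fell with the inhibitor, and 16.7% rose and 19.4% fell with the siRNA. Of joined genes there 10.3% were concordant rises, 12% concordant falls and 1.71% opposite in either direction. The concordant counts of both lists are near these shares. ME1, malic enzyme, rose by 0.94 and 0.76 in IGR37. Glycolysis and hypoxia genes had the same sign in 27 of 29 in IGR37 and in 9 of 29 in 501mel, and oxidative phosphorylation genes in 33 of 36 and 13 of 36.

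**Figure D4:**
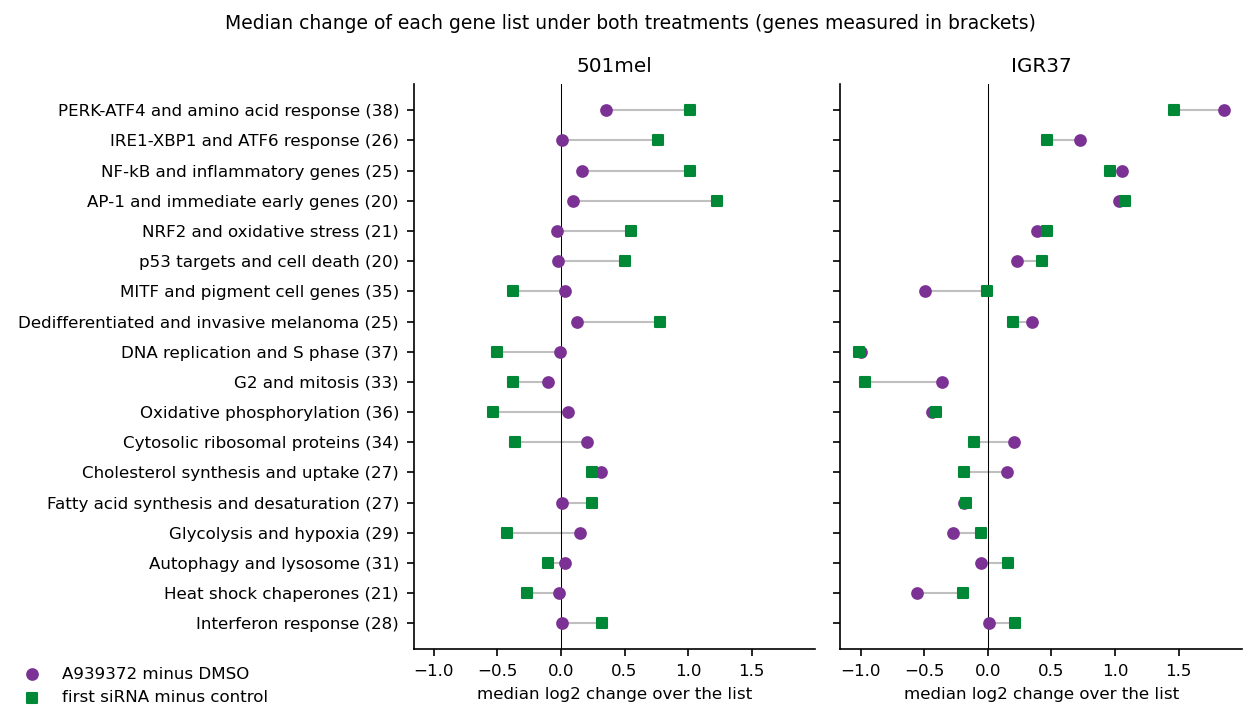
Median log2 change (x axis) over the measured members of 18 gene lists (y axis, number of genes in brackets) with A939372 (purple circles) and the first siRNA (green squares), 501mel on the left and IGR37 on the right. In 501mel the circles stay between -0.10 and 0.35 while the squares spread from -0.54 to 1.23, and in IGR37 the symbols lie close together for DNA replication (-1.0 and -1.02) and apart for G2 and mitosis (-0.36 and -0.96).

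The lines were compared by interaction tests within each table. The inhibitor effect differed for 3691 genes (27.6% of 13364), 1642 higher (12.3%) and 2049 lower (15.3%) in IGR37, and the siRNA effect for 2655 (20.3% of 13066), 1313 higher (10.0%) and 1342 lower (10.3%). Centring each library on its median turned the siRNA split into 1853 higher and 1021 lower, with a shift of 0.11 in the median of all genes. The same centring turned the siRNA calls within 501mel from 2733 rises and 2881 falls into 2260 rises and 3453 falls. Since concordant genes were chosen by their changes in IGR37, larger effects there are favoured by that choice. Among the 1327 IGR37 concordant rises the inhibitor effect was larger in IGR37 for 902, and the siRNA effect for 298, with 76 the other way. Among the 1549 concordant falls the inhibitor effect was larger in IGR37 for 1141 and the siRNA effect for 389, with 144 the other way. Most of these genes still moved in the same direction with the siRNA in 501mel, with median changes of 0.54 and -0.51. The sign was the same for 85.7% of the rises and 84.7% of the falls, against 66.5% of all joined genes. With the inhibitor 63.9% of the rises and 63.7% of the falls had the same sign in 501mel, against 56.4% of all joined genes. Their medians were 0.07 and -0.06.

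A further count took genes called in the other 3 effects. There were 834 genes that rose with the siRNA in both lines and with the inhibitor in IGR37, and their median inhibitor change in 501mel was 0.08. Before any adjustment, the limma p for the inhibitor in 501mel was under 0.05 for 127 of them with a rise and for 20 with a fall. Over all 12896 joined genes it was under 0.05 for 1280, in either direction. The interaction test called 613 of the 834 higher in IGR37, a direction that the choice of genes by their rise there favours. The 998 genes that fell in the same 3 effects had a median of -0.04. The unadjusted limma p was under 0.05 for 95 of these 998 with a fall and for 27 with a rise. The interaction test called 794 of them lower in IGR37, with the same limit. Among genes concordant in IGR37 and at or above the median level, the largest differences of the inhibitor effect (IGR37 minus 501mel) were those of SLC7A11 (4.09), DDIT3 (3.55), RELB (3.48) and ASNS (3.47) upward, and PI15 (-3.09, whose siRNA call in IGR37 was lost in 7 of 16 settings), PIK3R3 (-2.85), ATAD3B (-2.58) and MARCKSL1 (-2.28) downward. PIK3R3, a regulatory subunit of PI3-kinase, fell by 2.78 and 1.29 in IGR37, beside 0.07 and -0.10 in 501mel. MARCKSL1, an actin-linked protein, fell by 2.56 and 0.71, beside -0.29 and 0.22.

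Further measured values are set beside the difference between the lines. Dose and time were the same in both lines. The SCD level under DMSO was 644 to 722 CPM in 501mel and 845 to 870.2 in IGR37. That of SCD5, the second human desaturase of this type, was 11.1 to 13.8 and 11.1 to 12.3, and that of FADS2, the delta-6 desaturase, was 5.56 to 7.67 and 3.25 to 3.42. With the inhibitor SCD5 stood at 12.8 to 14.1 in 501mel and 6.59 to 8.92 in IGR37, and FADS2 at 6.58 to 10.1 and 3.73 to 4.94. Read totals of the inhibitor and DMSO libraries were 4738589 to 6502417 in 501mel and 4278126 to 5157153 in IGR37. When only the groups compared entered the fit, the inhibitor called 8 genes in 501mel and 6406 in IGR37. The part of these levels in the difference between the lines was not tested, and drug uptake or enzyme activity was not measured in these libraries.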

How the data were processed

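Transcript 3′ ends were measured (QuantSeq Forward, 500 ng of RNA) in the 24 libraries described, whose groups come from their titles. The authors deposited log2 values, normalised per table; per the submitters' processing notes, STAR, edgeR and hg38 were used, with no versions given. The deposited log2 values gave whole reads under a prior count of 0.25 (within 3.63e-07 of a whole number where a gene had under 1000 reads). Levels in CPM and read totals come from those recovered reads, while tests used the log2 values as deposited, so changes of genes with few reads depend on the prior count.

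The inhibitor effects were fitted in the table of 24 libraries (13364 genes, all groups sharing the spread) and the siRNA effects in the table of 12 (13066 genes), with limma 3.58.1 in R 4.3.3 (lmFit, contrasts.fit, eBayes with trend), two-sided, adjusted by Benjamini-Hochberg over all genes of a table, threshold 0.05. Spike-ins stayed out. No test crossed the tables. Replicates of a group differed by more than sampling noise (chi-square per degree of freedom 1.90 to 6.32 over 24 pairs). No pair of treated and control libraries with equal replicate number had a residual correlation above 0.1, and no block was used. Whether the libraries were paired is not given. The scripts were tested on simulated data.

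The members and gene lists were chosen with earlier results of these data known. Genes are named by a rule: SCD, MITF and ATF4; the leading concordant and opposite genes by the smaller of both changes, the leading genes concordant in both lines, the leading siRNA-only genes and line differences, at or above the median level and with libraries not overlapping; and leading members of each list. HMGCS1, FADS1, FADS2, SCD5, HSPA5, XBP1, the further 501mel concordant genes and the genes named for a promoter word were chosen after their values were seen. A few genes under these rules are not reported here. RefSeq (GRCh38.p14) supplied promoters and GENCODE 29 UTRs. Alternatives were other scalings, filters, pseudocounts, variance models, fits of only the groups compared, a replicate block, and leaving out each library.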

Additional observations from a re-analysis of the deposited data

Results flagged for a closer look

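The listed results are those whose effect differed between the lines by an interaction test within 1 table (limma, Benjamini-Hochberg adjusted over all genes of the table); values are IGR37 minus 501mel on the log2 scale. The inhibitor effect differed for 3691 genes and the first siRNA effect for 2655. For MITF the inhibitor effect was lower in IGR37 (-0.89, adjusted p = 1.78e-06) and the siRNA effect higher (0.75, adjusted p = 4.52e-05). For ATF4 both were higher in IGR37, by 1.78 (adjusted p = 1.86e-07) and 0.74 (adjusted p = 0.00112), and so they were for SESN2, by 2.05 and 0.80, and for RELB, by 3.48 and 2.13. TSC22D3 and DDIT4 changed order between treatments: their inhibitor effects were higher in IGR37 by 0.95 and 0.90, and their siRNA effects were lower, at -0.80 and -0.71. The inhibitor effect alone was listed as higher in IGR37 for NUPR1 (1.87), CHAC1 (2.28), ASNS (3.47), SLC7A11 (4.09) and DDIT3 (3.55), and as lower for ATAD3B (-2.58). Both effects were lower in IGR37 for PI15 (-3.09 and -0.50), PIK3R3 (-2.85 and -1.19) and MARCKSL1 (-2.28 and -0.92). These genes were named for their size or role, and the causes of the differences were not tested.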

How the results depend on the processing

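No named gene changed direction under the alternatives run, and depth left low genes with wide errors. Over the named genes and their alternatives, 4790 values still passed and 292 did not. In the 2-fold setting a change under 2-fold counts as not passing. Without that setting, the 501mel inhibitor effect had 56 losses with 1 library left out and 40 under other alternatives, although it called only 39 genes in all. The siRNA effect in 501mel had 25 and 11, the inhibitor effect in IGR37 19 and 10, and the siRNA effect in IGR37 19 and 17. In 501mel the inhibitor effect gave 8 genes with only the groups compared, 15 at 2-fold or more, and 17 to 31 with 1 library left out; concordant genes were 3 with only the groups compared, 14 without a variance trend, 17 with voom weights on recovered reads (chosen after seeing the data), 9 at 2-fold or more, and 12 to 26 with 1 library left out; opposite genes were 0 with only the groups compared, 1 without a variance trend, 0 at 2-fold or more, 6 with the replicate block, and 0 to 3 with 1 library left out. At 2-fold or more the siRNA effect gave 1672 genes in 501mel and 1188 in IGR37, the IGR37 inhibitor effect 1927, the differences between lines 1432 (inhibitor) and 849 (siRNA), and IGR37 510 concordant and 23 opposite genes. With 1 library left out, IGR37 had 2457 to 2791 concordant and 168 to 236 opposite genes, not all of them the same genes, and 1884 of the 2876 were concordant in every such fit. Over every alternative except the 2-fold one, 1827 of the 2876 concordant and 72 of the 221 opposite genes of IGR37 kept their class. In 501mel 2 of the 26 concordant genes, GDF15 and INSIG1, and 0 opposite genes did. The correlation in 501mel was 0.112 at or above the median level, 0.0978 with the stricter filter and 0.0509 after quantile normalisation, and 0.0370 to 0.0955 with 1 library left out; the same-sign share was 49.5% (without DMSO replicate 2) to 54.5%. In IGR37 the correlation was 0.688 at or above the median level, 0.546 for genes with neither word (chosen after seeing the data), 0.597 with the stricter filter, 0.605 with a pseudocount of 1, 0.542 with voom, and 0.476 to 0.511 with 1 library left out; the same-sign share was 74.5% at or above the median level, 71.1% for genes with neither word, 71.9% with the stricter filter and 70.6% with the pseudocount, and 69.1 to 70.8% with 1 library left out. The cause of these shifts was not tested. Of 12 pairs of equal replicate number, 0 had a residual correlation above 0.1. In the 501mel inhibitor comparison these values were 0.017, 0.080 and 0.017, beside -0.044 to 0.027 for unequal numbers. A weak pairing there cannot be told from none. With the replicate block 501mel gave 53 inhibitor genes and 30 concordant ones. Fits by edgeR and DESeq2 and scaling on spike-ins were not run.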
